A study of Mus musculus with 4 samples.

Results

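The Zfp900 series is a run of mouse zinc finger genes, here the 47 protein-coding genes with a name from Zfp900 to Zfp999 that had counts in both deposited tables, out of 19150 genes in both. Of 52 genes so named in either table, 4 (Zfp968, Zfp973, Zfp981 and Zfp993, with 1 to 5 reads per library) were in 1 table alone and 1 (Zfp939) is annotated as a pseudogene. The RNA came from brain of C57BL/6 mice at E13.5. Knockout of macroH2A (KO) is represented by libraries KO2 and KO4 and wild type (WT) by WT6 and WT8, which makes 4 libraries, and the labels name neither the macroH2A gene that was deleted nor how, nor the litters. MacroH2A is a histone H2A variant with a large extra domain, and the series asks what its loss does in the developing brain.

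Most genes of this kind encode proteins with a KRAB domain at one end and an array of C2H2 zinc fingers at the other. The fingers bind DNA, often within transposable elements, and the KRAB domain recruits the corepressor TRIM28 (KAP1). TRIM28 in turn brings in the histone methyltransferase SETDB1, heterochromatin protein 1 and DNA methylation, so that the bound element is silenced. The family grew by tandem duplication, its members sit in clusters, and many close copies differ from one another by few bases. ZFP932 is known, from mouse embryonic stem cells, to bind endogenous retroviruses of the ERVK class together with its copy Gm15446.

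Most of the 47 genes carry these features. The authors' deposited annotation gives a KRAB domain as the protein family match for 45 of 47, with Zfp956 (DUF3669) and Zfp964 (Transposase_22) as the exceptions. The longest annotated coding sequences hold a median of 11 C2H2 fingers, with 21 in Zfp974 and 0 in Zfp972. Copies were close. Zfp991 and Zfp992 share 99.5% of their aligned coding bases, Zfp955a and Zfp955b 98.2% and Zfp947 and Zfp995 95%. In 8 of the 47 genes at least 50% of all stretches of 50 bases were also found in the transcript of another gene, and in 25 at least 10% were. Exons of 12 members also overlap those of another annotated gene. For Zfp935 this is a second entry of the same name, which also holds 58.7% of its stretches of 50 bases. Counts of genes with copies or overlaps can be split between copies or shared with a neighbour. No source used here says how reads with several matches were treated.

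The promoters of the 4 members with the smallest p, and of Zfp932, are shown because most promoters of these genes share a short sequence element, and because Zfp955a and Zfp955b, which had the largest fold changes, have the same one. Each line is a RefSeq promoter on GRCm38.p6, from 250 bases before the start to 50 after it, read 5′ to 3′ on the strand of the gene, and capitals mark CCAAT or its reverse complement ATTGG. Zfp955a lies at chr17:33255096-33255395 on the minus strand, Zfp955b at chr17:33289294-33289593 on the plus strand, Zfp961 at chr8:71950816-71951115 on the plus strand, Zfp953 at chr13:67360523-67360822 on the minus strand and Zfp932 at chr5:109996260-109996559 on the plus strand.
Zfp955a: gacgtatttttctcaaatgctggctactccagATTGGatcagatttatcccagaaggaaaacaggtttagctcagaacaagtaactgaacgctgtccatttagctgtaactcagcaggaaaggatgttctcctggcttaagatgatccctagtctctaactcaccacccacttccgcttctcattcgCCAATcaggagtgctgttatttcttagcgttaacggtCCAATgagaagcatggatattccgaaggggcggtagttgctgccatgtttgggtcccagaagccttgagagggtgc
Zfp955b: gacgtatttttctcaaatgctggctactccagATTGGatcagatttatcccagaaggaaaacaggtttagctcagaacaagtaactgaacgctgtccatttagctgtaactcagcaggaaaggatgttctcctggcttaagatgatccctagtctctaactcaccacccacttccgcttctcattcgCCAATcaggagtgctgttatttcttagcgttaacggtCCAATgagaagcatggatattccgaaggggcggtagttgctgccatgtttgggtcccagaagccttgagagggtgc
Zfp961: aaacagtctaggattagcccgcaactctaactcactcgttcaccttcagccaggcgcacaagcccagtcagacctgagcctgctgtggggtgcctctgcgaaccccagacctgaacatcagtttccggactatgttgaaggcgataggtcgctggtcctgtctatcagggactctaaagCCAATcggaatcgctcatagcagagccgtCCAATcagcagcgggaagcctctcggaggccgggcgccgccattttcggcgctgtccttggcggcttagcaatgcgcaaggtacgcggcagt
Zfp953: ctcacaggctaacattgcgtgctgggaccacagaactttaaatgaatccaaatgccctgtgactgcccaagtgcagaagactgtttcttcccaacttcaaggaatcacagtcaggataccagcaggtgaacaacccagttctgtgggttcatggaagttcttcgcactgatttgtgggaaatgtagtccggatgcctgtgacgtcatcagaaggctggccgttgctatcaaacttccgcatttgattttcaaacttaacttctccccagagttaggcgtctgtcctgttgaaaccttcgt
Zfp932: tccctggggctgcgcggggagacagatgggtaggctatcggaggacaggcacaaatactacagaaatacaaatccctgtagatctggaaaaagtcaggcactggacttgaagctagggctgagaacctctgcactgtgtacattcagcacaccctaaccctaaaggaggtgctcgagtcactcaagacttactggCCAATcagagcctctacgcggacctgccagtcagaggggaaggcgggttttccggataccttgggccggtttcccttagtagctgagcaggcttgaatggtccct

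The promoters of Zfp955a and Zfp955b differed at 0 of 300 bases, although the genes point away from each other with 34.6 kb between their 5′ ends. They were the single pair of members with an identical promoter in the table. Both hold 3 matches to the CCAAT box, a promoter element known to be bound by the factor NF-Y, and the nearest begins 26 bases before the start. Of the 47 promoters listed for 42 members, 36 (76.6%) held CCAAT on either strand, against 37.4% of all 32851 promoters of this length. The longer run CCAATCA, searched on both strands as CCAATCA and TGATTGG, each of which contains a match to the shorter one, was in 29 (61.7%) of the members' promoters and in 7.82% of all promoters. It was also in 13.8% of the 319 promoters of other genes named Zfp and a number. Both runs were chosen after the promoters had been seen, and copies of a duplicated promoter are not independent. The 11 members without CCAAT in the listed windows included 7 of the 10 genes of the large chromosome 17 cluster, among them Zfp946 and Zfp942, and also Zfp953. Zfp930, Zfp934, Zfp960, Zfp991 and Zfp992 had no entry. Members with CCAAT had a median log2 fold change of 0.18 (28 tested) and those without it one of 0.15 (11 tested), where a positive value means higher in KO.

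The libraries were of similar depth and of brain, and H2afy was low in the knockout. Total counts lay between 16470090 and 18136745 per library. All 10 brain markers listed, such as Sox2, Pax6 and Tubb3, exceeded 50 CPM in every library. CPM is the read count scaled to a common library size, here with TMM factors. The levels of brain markers varied between libraries. Emx1 was at 145 and 137 CPM in KO, against 194 and 197 CPM in WT, and Dcx at 747 and 774, against 735 and 651. Dlx2 was at 194 and 185 CPM in KO, against 123 and 212 CPM in WT, and Neurod6 at 597 and 642, against 839 and 530. Of markers of other cells, the embryonic globin gene Hbb-y was at 177 and 227 CPM in KO, against 134 and 426 CPM in WT with WT8 the highest, and the choroid plexus gene Ttr had 6 and 11 reads in KO, against 53 and 4 in WT. The part of cell composition in the results was not tested. H2afy, which encodes macroH2A1, fell to 1368 and 1267 reads in KO, against 5538 and 5593 in WT (log2 fold change -2.22, SE 0.097, edgeR quasi-likelihood adjusted p = 0.00167). H2afy2, which encodes macroH2A2, stood at 0.084 (edgeR adjusted p = 0.799). Without WT6 the adjusted p of H2afy was 0.314, with a log2 fold change of -2.29. By Xist and Y-linked transcripts KO2 and WT6 were male and KO4 and WT8 female. The deposited tables pair KO2 with WT6 and KO4 with WT8, so that table and sex cannot be told apart.

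The Zfp900 series genes were expressed at low to moderate levels in all libraries. Their mean level over the 4 libraries ranged from 0.129 CPM for Zfp965 to 37.1 CPM for Zfp946, and 18 of 47 reached 10 CPM. In total the 47 genes took 8205 and 8169 reads in KO, against 7043 and 6428 in WT. This is 448 and 446 CPM in KO, against 409 and 403 CPM in WT, and the genotypes did not overlap. In bulk brain RNA, fewer cells that use a gene and less RNA of it per cell cannot be told apart.

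**Figure D1:**
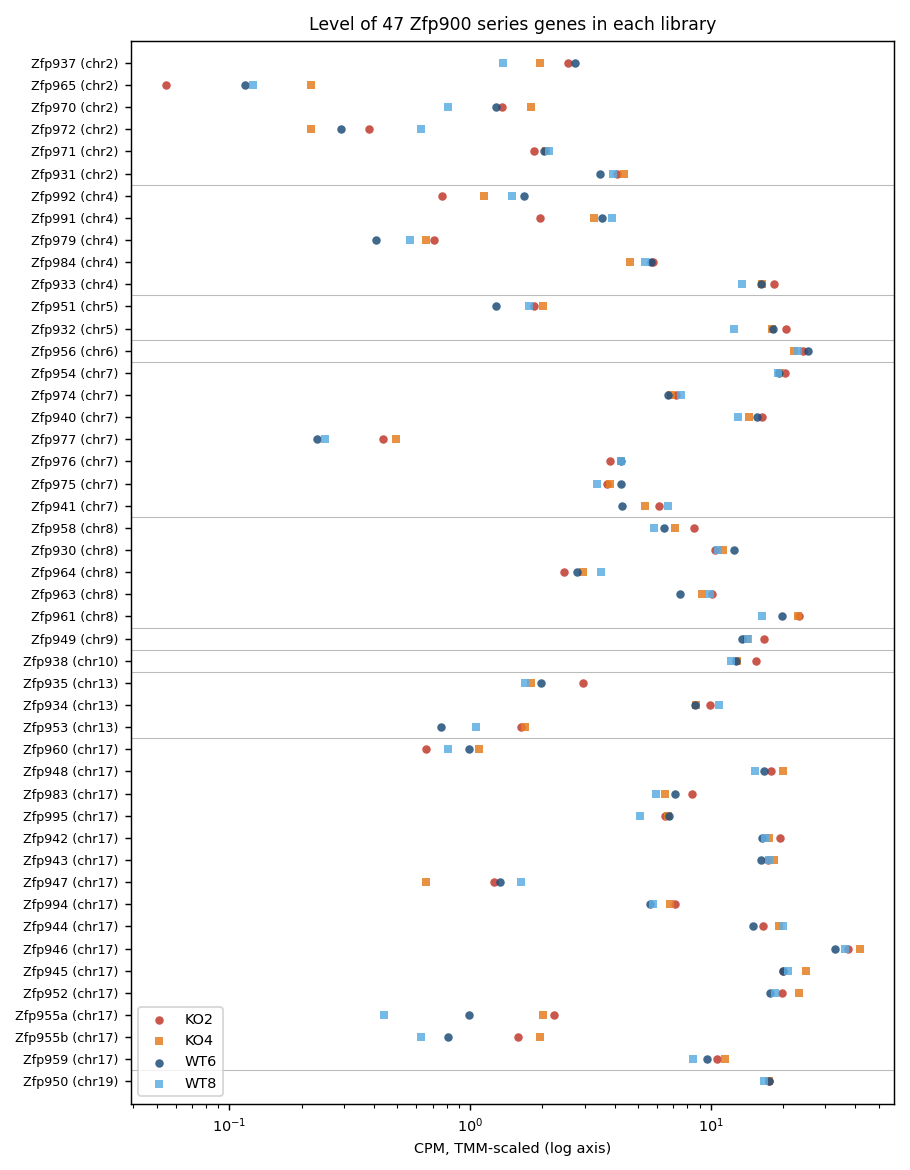
Level of each of the 47 genes in each library, in TMM-scaled CPM on a log axis, with 1 point per library (KO2 and KO4 in red and orange, WT6 and WT8 in dark and light blue) and genes ordered by chromosome and position. Zfp946 has the highest CPM in every library, and the points of most genes above 10 CPM lie close together while those of scarce genes spread widely.

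Per kilobase of annotated exon, Zfp946 stood first at 10.6 CPM per kb, with 9.42 to 11.9 CPM per kb over the 4 libraries. Zfp954 and Zfp956 followed at 8.16 and 7.99 CPM per kb. Their ranges over libraries, 7.95 to 8.52 and 7.48 to 8.58 CPM per kb, overlap, so these neighbours in the order do not differ beyond their spread. Zfp948 (6.58), Zfp944 (6.36) and Zfp938 (6.26 CPM per kb) came next and overlap as well. Zfp932 stood 7th at 5.30 CPM per kb, with a range from 3.83 to 6.27. At the low end were Zfp955b at 0.215, Zfp979 at 0.142 and Zfp965 at 0.0553 CPM per kb. Zfp965 shares 96.3% of its stretches of 50 bases with other transcripts, mainly that of Zfp973.

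None of the members passed the edgeR test between KO and WT. Of 44 members with enough reads to be tested, 0 rose and 0 fell at an adjusted p under 0.05, against 0% of all 15708 tested genes called higher and 0.00637% called lower (1 gene, H2afy). At an unadjusted p under 0.05, 4 members were higher (Zfp955a, Zfp955b, Zfp961 and Zfp953; background 2.44%) and 0 were lower (background 2.26%). DESeq2 and limma-voom called 0 members (background 0.0255% and 0.00637%). The half-width of a member's 95% interval on the log2 scale was 0.47 at the median. Zfp965, Zfp972 and Zfp977 did not pass the filter on low counts, with 1 to 10 reads per library.

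Most fold changes of the members were above 0. The median log2 fold change was 0.14 over the 44 tested members, 0.077 over 300 other genes named Zfp and a number and -0.0070 over all tested genes. Of the 44, 31 had a value above 0, or 70.5%, against 68.3% of the other Zfp genes and a background of 48.9%. The KO libraries were each above each WT library for 18 members (40.9%; background 20.1%) and below for 3 (6.82%; background 19.4%), where the other Zfp genes gave 34.0% and 11.3%. Within the deposited pairs the members' median log2 ratio was 0.14 (KO2 over WT6) and 0.13 (KO4 over WT8), and that of the other Zfp genes was 0.017 and 0.16. Without KO2 the members' median was 0.079. Neighbouring copies can share reads, and these counts are a description with no test.

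**Figure D2:**
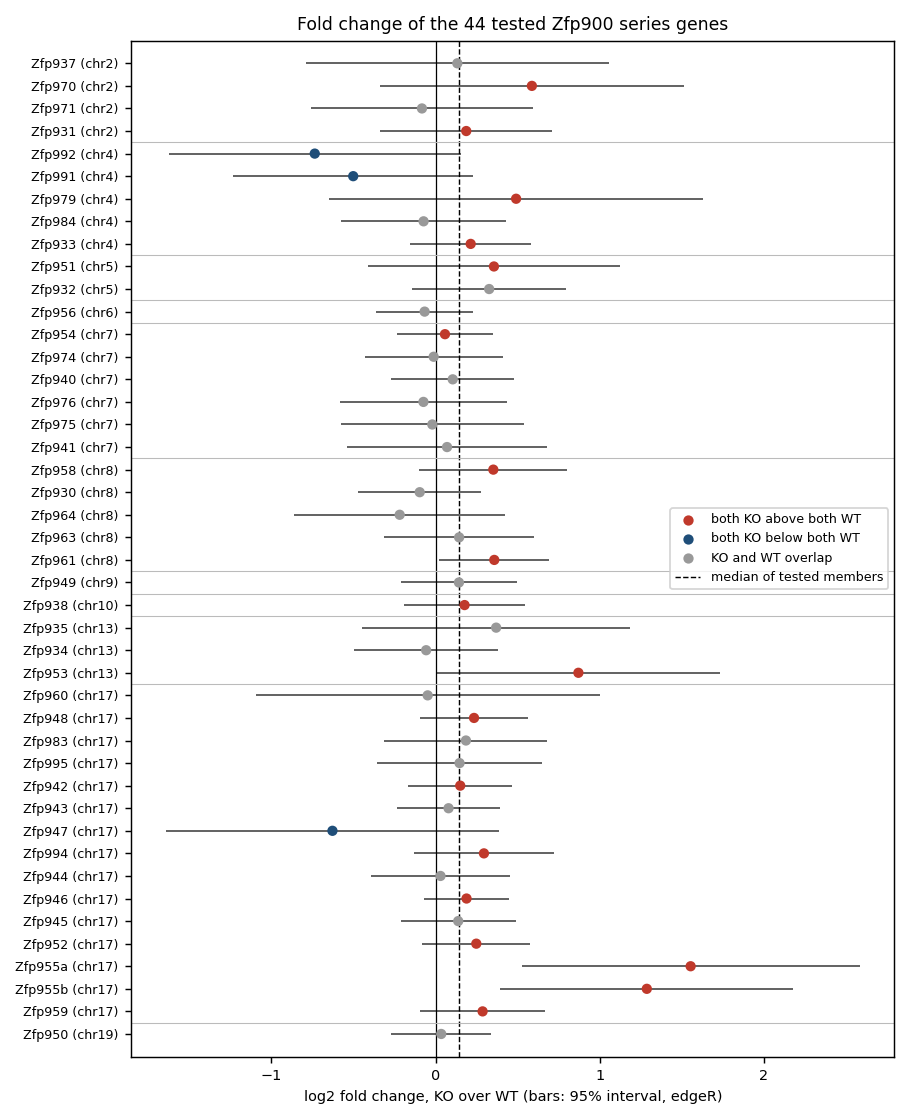
Log2 fold change of KO over WT for each tested member with its 95% interval from edgeR, in order of chromosome and position, coloured by whether the 2 KO and 2 WT libraries overlap. Zfp955a and Zfp955b stand at 1.56 and 1.29, and the dashed line marks the median of 0.14.

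Across all tested genes the fold change was higher at low GC content, and the members are poor in GC. The median GC content of the tested members' transcripts was 39.3%, against 46.4% for the other Zfp genes and 50.1% for all tested genes. Among all tested genes the median log2 fold change was 0.13 below 40% GC (632 genes), 0.12 from 40% to 45%, 0.058 from 45% to 50%, -0.055 from 50% to 55% and -0.14 above that. The 25 members below 40% GC had a median of 0.14 and the 14 members from 40% to 45% one of 0.22. Within the deposited pairs the medians of all tested genes differed in slope. They ran from 0.083 below 40% GC to -0.051 above 55% GC for KO2 over WT6. For KO4 over WT8 they ran from 0.18 to -0.21. After a trend on GC content and exon length was removed from each library, an alternative added after the data had been seen, the members' median was 0.043, with 27 of 44 above 0. Zfp955a and Zfp955b stayed at 1.43 and 1.16 in that fit.

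**Figure D3:**
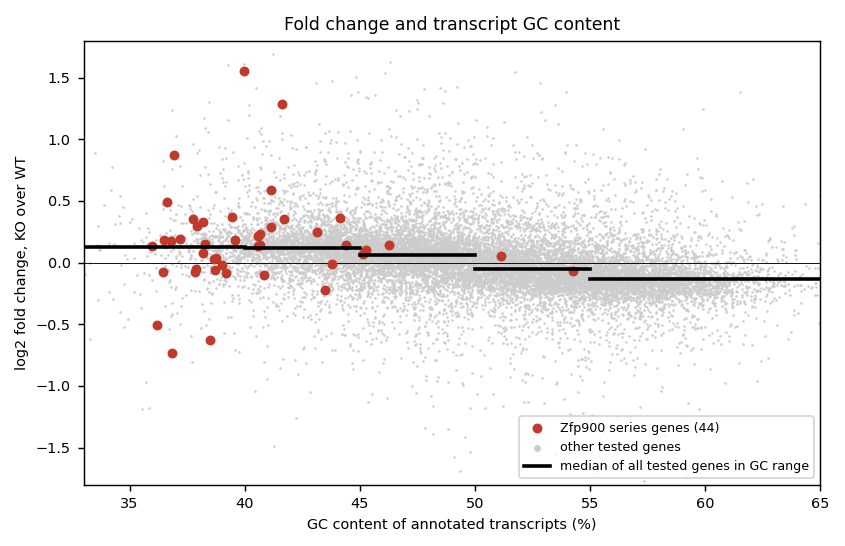
Log2 fold change of KO over WT against the GC content of the annotated transcripts, with the 44 tested members in red, other tested genes in grey and black lines for the median of all tested genes in each GC range (94 genes lie outside the axes, 0 of them members). The medians run from 0.13 below 40% GC to -0.14 above 55% GC, and most members sit below 45% GC.

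Zfp955a and Zfp955b had the largest fold changes of the series, both on few reads. Zfp955a (ENSMUSG00000094441, chromosome 17, 33241519 to 33255040, minus strand) had 41 and 37 reads in KO, against 17 and 7 in WT. Zfp955b (ENSMUSG00000096910, chromosome 17, 33289649 to 33303196, plus strand) had 29 and 36 reads in KO, against 14 and 10 in WT. Every KO library held at least 29 reads of either gene and no WT library held more than 17, so the genotypes did not overlap.

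The mean level of Zfp955a was 2.13 ± 0.154 CPM in KO against 0.713 ± 0.389 CPM in WT (SD, n = 2 libraries each). Its log2 fold change was 1.56 (SE 0.43, 95% interval 0.52 to 2.59, edgeR adjusted p = 0.743). That of Zfp955b was 1.77 ± 0.271 CPM in KO against 0.720 ± 0.133 CPM in WT, and its log2 fold change was 1.29 (SE 0.38, interval 0.39 to 2.18, edgeR adjusted p = 0.743). Of the stretches of 50 bases in Zfp955a, 51.8% are also in Zfp955b, and whether reads from these stretches were counted for either gene is not known here. Summed over both, there were 70 and 73 reads in KO, against 31 and 17 in WT. Exons of Zfp955b overlap Zfp422-ps on the opposite strand over 707 bases, and no source used here says whether counting used strand. Within pairs the log2 ratio of Zfp955a was 1.09 (KO2 over WT6) and 1.92 (KO4 over WT8), and that of Zfp955b was 0.86 and 1.46. The fold of Zfp955a was 2.26 on the log2 scale without WT6 and 1.11 without WT8. In the alternatives on all 4 libraries the adjusted p of Zfp955a lay between 0.723 (edgeR, filter at a mean CPM of 1) and 0.9998 (DESeq2).

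**Figure D4:**
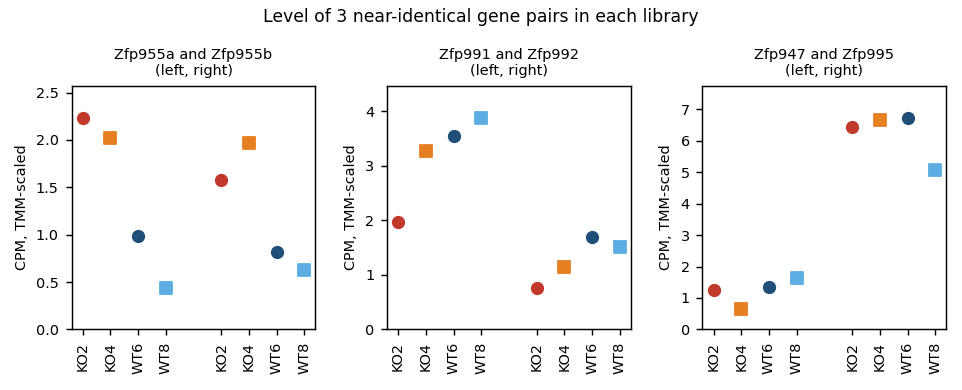
Level of the 3 pairs of members with at least 95% identical coding sequence, in TMM-scaled CPM on axes from 0, with 1 point per library and the first named gene on the left of each panel. Both genes of the Zfp955 pair are higher in each KO library, both of the Zfp991 and Zfp992 pair are lower in each KO library, and Zfp947 and Zfp995 do not share a direction.

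The other near-identical pairs went other ways. Zfp991 had 36 and 60 reads in KO, against 61 and 62 in WT, and Zfp992 had 14 and 21 in KO, against 29 and 24 in WT. Zfp991 stood at -0.50 (SE 0.31) and Zfp992 at -0.74 (SE 0.37) on the log2 scale, and neither passed (edgeR adjusted p = 0.743 for both). The value of Zfp992 was the lowest of the 44 tested members. Without KO2 the values were -0.17 for Zfp991 and -0.47 for Zfp992, and without KO4 they were -0.92 and -1.06. Their sum was 50 and 81 reads in KO, against 90 and 86 in WT, and KO2 was the lowest library. Of the stretches of 50 bases in Zfp991, 82.2% are also in other transcripts, with 67.1% in that of Znf41-ps. The sum of the pair therefore need not hold all reads of such copies. Zfp947 had 23 and 12 reads in KO, against 23 and 26 in WT. It stood at -0.63 on the log2 scale (edgeR adjusted p = 0.743, SE 0.43). KO4 was the low library, and the value was -0.24 without KO4 and -1.16 without KO2. Its close copy Zfp995 had 118 and 122 reads in KO, against 116 and 81 in WT, and stood at 0.15. In CPM WT6 was the highest library for Zfp995, so the genotypes overlapped.

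Next to the Zfp955 pair, Zfp961 and Zfp953 came nearest to the threshold. Zfp961 is well expressed, with 428 and 422 reads in KO, against 341 and 261 in WT. Its mean level was 23.2 ± 0.226 CPM in KO against 18.1 ± 2.46 CPM in WT (SD), and its log2 fold change was 0.36 (SE 0.14, interval 0.022 to 0.69, edgeR adjusted p = 0.743). The KO libraries lay close together and WT8 was the lowest. Its log2 fold change was 0.23 without WT8 and 0.26 after removal of the GC and length trend. Exons of Zfp961 overlap Cyp4f18 on the opposite strand over 181 bases.

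Zfp953 had 30 and 31 reads in KO, against 13 and 17 in WT, or 1.66 ± 0.0390 CPM in KO against 0.910 ± 0.218 CPM in WT. Its log2 fold change was 0.87 (SE 0.36, edgeR adjusted p = 0.743). It lies on chromosome 13, as do Zfp934 and Zfp935 and as does H2afy itself. Zfp953 starts 11.2 Mb beyond the end of H2afy and the other two start 6.34 and 6.32 Mb beyond it. Zfp935 had 54 and 33 reads in KO, against 34 and 27 in WT, and Zfp934 had 182 and 160 in KO, against 148 and 173 in WT. The genotypes overlapped in both.

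By chromosome, 15 of the 47 genes lie on chromosome 17, and most of these lay to the higher side. Of the 15, 13 had a log2 fold change above 0, against 70.5% of all tested members, 68.3% of the other Zfp genes and a background of 48.9%. The KO libraries were both above the WT libraries in 8 (40.9% of all tested members, background 20.1%). They were both below in 1, Zfp947 (6.82% of all tested members, background 19.4%). Zfp947 and Zfp960 were the exceptions in direction. The largest cluster spans 1.30 Mb (21567046 to 22867134) with 10 members, from Zfp948 to Zfp945. Their summed level was 152 and 162 CPM in KO, against 138 and 145 CPM in WT, and their median log2 fold change was 0.15. Zfp946, the most abundant, had 685 and 763 reads in KO, against 568 and 580 in WT, and stood at 0.19 (SE 0.11). Zfp948 stood at 0.23 with 326 and 366 reads in KO, against 288 and 245 in WT. Without KO4 the values were 0.11 for Zfp946 and 0.15 for Zfp948, and Zfp946 was at 0.12 without WT6.

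The other abundant genes of that cluster lay between 0.030 and 0.15. Zfp942 had 355 and 321 reads in KO, against 282 and 269 in WT (0.15 on the log2 scale). Zfp943 had 316 and 336 reads in KO, against 280 and 278 in WT (0.079). KO2 was the highest library for Zfp942 and KO4 for Zfp943. Zfp945 had 368 and 457 reads in KO, against 343 and 335 in WT (0.14). Zfp944 had 304 and 351 reads in KO, against 258 and 320 in WT (0.030). The genotypes overlapped in CPM for Zfp943, Zfp944 and Zfp945 and not for Zfp942, Zfp946 and Zfp948. With the GC and length trend removed, Zfp943, Zfp944 and Zfp945 stood at -0.060, -0.094 and -0.028, and Zfp942, Zfp946 and Zfp948 at 0.011, 0.055 and 0.12. Leaving out 1 library moved Zfp942 to between 0.083 (without KO2) and 0.22 (without KO4), Zfp943 to between 0.030 (without WT6) and 0.13 (without WT8), Zfp944 to between -0.17 (without WT6) and 0.26 (without WT8) and Zfp945 to between -0.028 (without KO4) and 0.29 (without KO2). Farther along the chromosome Zfp952, next to the Zfp955 pair, had 363 and 425 reads in KO, against 305 and 295 in WT (0.25, SE 0.14), and stood at 0.13 without KO4 and 0.14 with the GC and length trend removed. None of these passed.

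On chromosomes 4 and 7 the members lay on both sides of 0. The 5 genes of chromosome 4 (146449023 to 147848366) summed to 27.5 and 26.0 CPM in KO, against 27.6 and 24.8 CPM in WT, with 2 above 0 and 3 below. The 7 on chromosome 7 summed to 58.0 and 54.7 CPM in KO, against 54.5 and 54.1 CPM in WT, with a median of 0.023 over the 6 tested, of which 3 were above 0 and 3 below. Zfp954 there had 374 and 356 reads in KO, against 331 and 304 in WT, and stood at 0.058 (0.029 without KO2 and 0.092 without KO4). The 5 on chromosome 8 summed to 54.9 and 53.5 CPM in KO, against 49.0 and 46.4 CPM in WT. That group holds Zfp961 and also Zfp958, with 156 and 130 reads in KO, against 110 and 93 in WT (0.35, SE 0.19, and 0.22 without KO2). Zfp930 had 192 and 207 reads in KO, against 215 and 172 in WT, and stood at -0.096 (0.014 without WT6), and Zfp964 had 45 and 54 in KO, against 48 and 56 in WT, and stood at -0.22 (-0.042 without WT8, -0.087 without KO2, -0.36 without KO4 and -0.38 without WT6). The genotypes overlapped in both.

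Among the remaining genes most values were above 0. The 6 genes of chromosome 2 summed to 10.3 and 10.6 CPM in KO, against 9.94 and 9.02 CPM in WT, and 3 of the 4 tested were above 0. Zfp938, the only member on chromosome 10, had 282 and 236 reads in KO, against 220 and 195 in WT (0.18, SE 0.15). Its KO4 library was barely above WT6 in CPM, at 12.9 against 12.8. Zfp949, the only one on chromosome 9 and the one member whose transcript shared 0 of its stretches of 50 bases with another gene, had 305 and 259 reads in KO, against 233 and 229 in WT (0.14, SE 0.15), and the genotypes overlapped in CPM. Zfp959, the last member along chromosome 17, had 195 and 210 reads in KO, against 166 and 135 in WT (0.29, SE 0.16), with each KO library above each WT library.

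Zfp932, the ERVK-binding member on chromosome 5, had 376 and 331 reads in KO, against 313 and 200 in WT. Zfp932 overlapped between the genotypes in CPM, with KO4 at 18.1 and WT6 at 18.2. Its log2 fold change was 0.33 (SE 0.20, edgeR adjusted p = 0.743), WT8 was the low library, and it was 0.089 without WT8 and 0.62 without WT6. Of its stretches of 50 bases, 34.9% are shared with Gm15446. Its closest member by coding sequence, Zfp975 at 74.4% identity, had 68 and 70 reads in KO, against 73 and 54 in WT, and stood at -0.020, or 0.015 when scaled by library totals alone. Zfp956 on chromosome 6 had 442 and 407 reads in KO, against 438 and 368 in WT (-0.067). Zfp950 on chromosome 19 had 319 and 321 in KO, against 301 and 265 in WT (0.035). The genotypes overlapped in CPM for Zfp956 and for Zfp950. With the GC and length trend removed Zfp950 stood at -0.12 and Zfp956 at 0.0033, and without 1 library Zfp950 lay between 0.0016 and 0.072 and Zfp956 between -0.13 and 0.0059.

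None of the listed corepressor and heterochromatin genes, which include the KRAB zinc finger gene Zfp445, passed the test either. Of the 39 gene names listed, 38 were found in both deposited tables and 37 were tested. The median log2 fold change of the 37 was 0.040. In edgeR 0 rose and 0 fell at an adjusted p under 0.05, against a background of 0% higher and 0.00637% lower. Both KO libraries were above both WT libraries in 12 (32.4%, background 20.1%) and below in 8 (21.6%, background 19.4%). At an unadjusted p under 0.05, 3 of the 37 were higher (Cbx3, Hells and Rbbp4; background 2.44%) and 0 lower (background 2.26%). Trim28 had 11932 and 12254 reads in KO, against 12550 and 12224 in WT (-0.18, SE 0.087), and in scaled CPM the KO libraries were the lower ones. Cbx3, which encodes heterochromatin protein 1 gamma, had 2629 and 2680 reads in KO, against 2110 and 1254 in WT (0.53, SE 0.19), with WT8 far below WT6. Hells, a chromatin remodeller needed for DNA methylation of repeats, stood at 0.27, the histone-binding protein gene Rbbp4 at 0.30 and Zfp445, a KRAB zinc finger gene that guards imprints, at 0.20. All 5 had an edgeR adjusted p of 0.743.

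In the authors' deposited tables, which compare 1 KO library with 1 WT library, few members carried the mark of significance, an adjusted p under 0.05 and a log2 ratio of 1 or more in either direction. For KO2 over WT6 the authors' deposited table marks 1 member higher (Zfp955a, log2 fold change 1.19; background 1.31%) and 0 lower (background 0.543%). For KO4 over WT8 the authors' deposited table marks 3 higher (Zfp955a at 2.27, Zfp955b at 1.71 and Zfp970 at 1.21; background 2.97%) and 1 lower (Zfp947 at -1.25; background 2.09%). Zfp955a was the single member marked in both of the authors' deposited tables. Zfp970 had 25 and 33 reads in KO, against 22 and 13 in WT. These marks rest on 1 library a side and do not carry the spread between samples.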

How the data were processed

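Sequencing libraries were made from total RNA of E13.5 brains, per the labels' protocols, and titles gave the groups. The authors deposited 2 tables with raw read counts per gene, per the file headers; each also holds the authors' CPM, log2 fold change and p-value of each gene, made from a single KO and a single WT library by a test that no source used here names. Tools listed are TopHat2 2.0.12, Bowtie2 2.2.3 and HTSeq 0.6.0, and the build listed is mm9, per the submitters' processing notes. Positions in the tables were identical to GENCODE M21 on GRCm38 for 91.2% of the genes and for 42 of the 47 members, so they are given as GRCm38.

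Genes found in both tables (19150) were fitted together on their counts in R 4.3.3 with edgeR 4.0.16 (quasi-likelihood F-test, genotype as the only term, TMM, filterByExpr, Benjamini-Hochberg adjustment over all 15708 tested genes, threshold 0.05). SE is the log2 fold change over the root of F. Within-pair ratios carry 2 reads added to each count. The fit was also run on counts simulated from its own means and dispersions, which cannot show that the model suits these libraries. The labels do not say whether the samples came from separate animals or litters. By Xist and Y-linked transcripts the 2 libraries of each genotype differed in sex, so they did not come from the same embryo. The p-values speak of the variation among these samples alone, and how much of it is technical is not known. The members, the lists and the rule for named genes (the 12 most abundant, the 6 with the smallest p in each direction, Zfp932 and Zfp955a with their closest members, the highest and lowest per kilobase, 4 corepressor genes by p and Trim28) were chosen with earlier results of these data known. Other members given with values, such as Zfp934, Zfp935, Zfp938, Zfp949, Zfp959, Zfp970, Zfp979 and Zfp995, were named after their values were seen. Closest members were found by coding sequence, since no protein table was used. Gene length, GC content and shared stretches of 50 bases came from GENCODE M21, promoters from RefSeq. As alternatives, DESeq2 1.42.0, limma 3.58.1 (voom), other scaling and other filters were run, besides a term for table or sex and leaving out single libraries.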

Additional observations from a re-analysis of the deposited data

How the results depend on the processing

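No member of the Zfp900 series and no corepressor gene was called under any alternative run; the smallest adjusted p of a member was 0.314, without WT6. The count of all genes called was 1 in edgeR, 2 on library totals alone, 4 with DESeq2, 2 with the deposited table as a term and 2 with sex as a term, and lay between 0 (without WT6) and 104 (without WT8) when a library was left out. H2afy lost its call without WT6 (-2.29, adjusted p = 0.314) and stood at -2.16 without WT8. The members' median log2 fold change of 0.14 was 0.18 on library totals alone, where all genes moved to 0.03, and 0.043 with the GC content and length trend removed; leaving out 1 library gave 0.079 (without KO2) to 0.14 (without WT8). The labels give the genotypes no shared replicate numbers, so no pairing comes from them; with the deposited pair of libraries as a term, which is also the sex term, the members' median was 0.15. A fit without 1 library holds a lone library of a genotype, which is assumed to vary like the others.

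Of 22 named tested members, 15 kept their direction in all alternatives. Without the GC and length trend the sign turned for Zfp943 (-0.060), Zfp944 (-0.094), Zfp945 (-0.028), Zfp950 (-0.12) and Zfp956 (0.00335). On library totals it turned for Zfp975 (0.015). Leaving out 1 library, the values ranged from -0.19 to 0.014 for Zfp930, from -0.17 to 0.26 for Zfp944, from -0.028 to 0.29 for Zfp945, from -0.13 to 0.0059 for Zfp956 and from -0.17 to 0.15 for Zfp975. The GC and length alternative was chosen after seeing the data. The cause was not tested.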
